A study of Mus musculus with 6 samples.

Results

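Genes of the keratin and cornified envelope program were examined in mouse oocytes that carry a truncated form of BNC1 (basonuclin 1), a zinc finger protein known as a transcription factor of keratinocytes. The members were chosen by symbol, with earlier results of these data known: every gene named Krt, Krtap, Sprr or Lce with a number, plus Ivl, Lor, Flg, Tgm1, Tgm3, Evpl, Ppl, Dsp, Pkp1 and Jup. This rule found 61 of the 17577 genes listed, of which 42 were keratins, and symbols of the rule without a row (among them Ivl, Lor, Flg, Evpl, Krt5 and Krt14) were not analysed here. The question was whether the program moved as a whole in mutant oocytes or in a few genes such as Sprr1a. Germinal vesicle (GV) oocytes, which are immature and still hold their nucleus, had been profiled in 3 libraries of Bnc1tr/tr mice and 3 libraries of wild type (WT) mice. All mice were C57BL/6 J and 12 weeks old. The Bnc1tr/tr mice are homozygous for a frameshift allele that truncates the protein in every tissue, so the oocytes had developed in ovaries whose other cells carried the allele too. The study's methods describe hormone priming before oocytes were collected, littermate comparison and cDNA made from a single oocyte. Because the labels do not tie libraries to animals, the p-values measure the spread between these libraries, which may in part be technical.

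Keratins are intermediate filament proteins that pair 1 type I chain with 1 type II chain, and the pair in use differs with the cell: Krt8 with Krt18 in simple epithelia, Krt1 with Krt10 in upper epidermis, and separate sets in the hair shaft and its inner root sheath. As a keratinocyte dies it replaces its membrane by a cornified envelope, a shell in which transglutaminases such as TGM1 crosslink small proline-rich, late cornified envelope and scaffold proteins, anchored at desmosomes. Oocytes and early embryos are known to hold some keratin filaments, but a cornified envelope is not a structure of the oocyte.

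Levels are in FPKM (fragments per kilobase of transcript per M, or mega, mapped fragments), and each set of 3 values is in the order of replicates 1 to 3. Bnc1 itself stood at 9.04, 6.51 and 5.83 FPKM in Bnc1tr/tr and at 13.17, 12.54 and 16.23 in WT. The targeted transcript was lower in every mutant library but present in all of them (log2 fold change -0.89 ± 0.20 SE, limma adjusted p = 0.0090). The oocyte label was borne out by 14 oocyte genes such as Zp3 and Gdf9, which summed to 15944 to 17215 FPKM in Bnc1tr/tr and 17680 to 19352 in WT. Some transcripts of other cells were listed above 0 in Bnc1tr/tr replicates 1 and 2 alone. Lyz2, a lysozyme of myeloid cells, was at 5.81, 47.97 and 0 FPKM in Bnc1tr/tr. Tyrobp was at 8.42, 9.80 and 0, and 3 haemoglobin genes summed to 1.04, 10.1 and 0, all listed at 0 in every WT library. The 10 immune markers together summed to 103, 144 and 78 FPKM in Bnc1tr/tr and 94.8, 102 and 76.8 in WT, with 0 called. Among them C1qb was at 53.09, 70.65 and 58.64 FPKM against 82.74, 95.27 and 64.81. H2-Aa was at 14.02, 8.97 and 17.51 against 9.01, 4.94 and 10.62. C1qa, at 1.39, 1.66 and 0.61 FPKM, was above 0 in every mutant library, replicate 3 included, and listed at 0 in every WT library. It was called higher only in a fit with no filter on low values (limma adjusted p = 0.013). The 11 granulosa markers summed to 46.2 to 63.9 FPKM in Bnc1tr/tr and 22 to 40.9 in WT, and 2 of them were called higher: the hormone receptor Fshr, at 4.54, 5.83 and 5.37 FPKM against 0.31, 0.74 and 0, and Cyp11a1, at 6.08, 5.53 and 5.29 against 2.17, 1 and 0.60. Cyp19a1, the most abundant of them, was at 27.49, 44.41 and 33.46 FPKM against 23.45, 28.98 and 17.41 and was not called. Inha was at 0.18, 1.81 and 0.09 FPKM against 6.78, 3.45 and 0.04, and Gja1 at 0.63, 0.68 and 0.20 against 2.77, 1.14 and 0.06. Both, and Hsd17b1, were higher in WT replicates 1 and 2 than in any mutant library. Of the markers not called, 6 were under 1 FPKM in every mutant library. Foxl2 was listed at 0 in these libraries and at 0.03 FPKM or less in WT. The 7 stroma markers summed to 6.53 to 10.3 FPKM and 1.73 to 2.27, with 1 called higher. Over all genes tested, 24.1% were called higher. The part of other cells in the results was not tested. Fold changes are also given without Bnc1tr/tr replicates 1 and 2. The depth estimated for the libraries was 13.2 to 21.2 M fragments (M, mega). A value of 0.141 to 0.228 FPKM then stands for 3 fragments on 1 kb, and smaller values for fewer.

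Of the 61 members, 13 rose in Bnc1tr/tr oocytes and 0 fell, while 8 more were tested without passing. At an unadjusted limma p under 0.05, 16 of the tested members were higher and 1, Krt88, was lower. Genes were tested by limma on log2(FPKM + 1) if their mean over the 6 libraries was at least 1 FPKM, and called at an adjusted p under 0.05 with an absolute log2 fold change over 0.5. By the same rule 24.1% of 10560 genes were called higher and 7.68% lower. The 21 tested members cannot be set against that share directly, since 9 of them had a WT mean under 1 FPKM and passed the filter through the mutant group alone. With no filter, 14 of all 61 members (23%) were called higher and 0 lower, beside 15.5% and 3.82% of all 17577 genes. The median log2 fold change was then 0.20 over the members and 0.09 over all genes. All 3 mutant libraries lay above all 3 WT libraries for 23 members (37.7%) and below them for 2 (3.28%), beside 28.2% and 9.78% of all genes. The mean in mutant oocytes stayed under 1 FPKM for 39 members. The calls were thus held by a subset of members, and those not called ranged from genes near the floor to Krt12, the most abundant member in WT. Without Bnc1tr/tr replicates 1 and 2 a single mutant library is left, with no spread of its own. In that fit the 13 members called higher with all libraries had log2 fold changes from 1.06 (Krt18) to 5.41 (Sprr1a). Tested genes as a whole had a median log2 fold change of 0.15, so fold changes relative to that median are smaller by this amount, 5.96 for Sprr1a and 1.11 for Krt25. Upper-quartile scaling moved the median to -0.09 and called 17.5% of genes higher and 17% lower, with 12 members higher and 1, Krt88, lower.

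**Figure D1:**
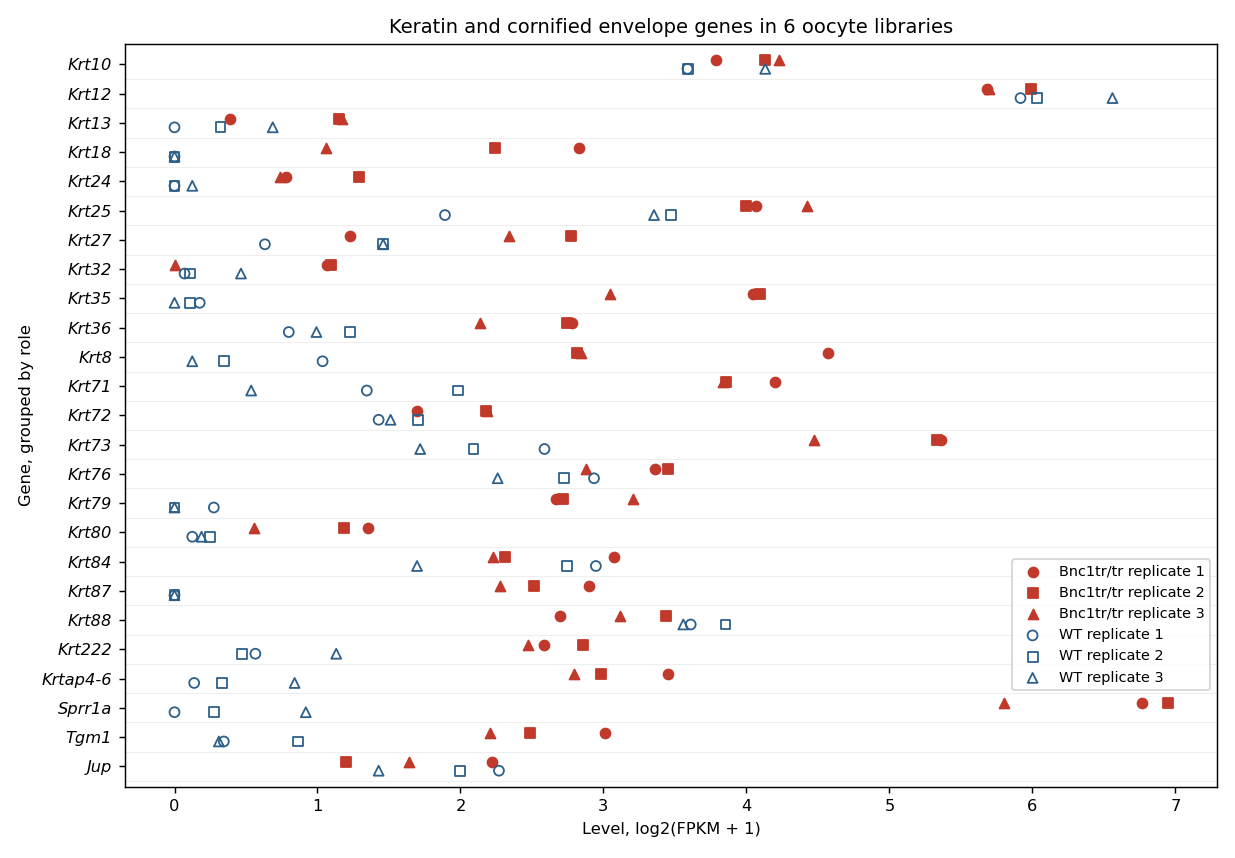
Level of the 25 members with at least 1 FPKM in a library, on a log2(FPKM + 1) axis, by gene and in order of role. Filled red marks are Bnc1tr/tr libraries and open blue marks are WT libraries; Sprr1a, at 54.86 FPKM or more in every mutant library, is the farthest to the right of its WT values, while Krt10 and Krt12 overlap between the groups.

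The largest increase belonged to the small proline-rich proteins and to 1 gene of them. Sprr1a, which encodes a crosslinked precursor of the cornified envelope, stood at 107.94, 122.32 and 54.86 FPKM in Bnc1tr/tr and at 0, 0.21 and 0.89 in WT. The lowest mutant library lay far above the highest WT library, and the log2 fold change of 6.11 ± 0.33 was the first by size among the 10560 genes tested (limma adjusted p = 3.9e-06). With Bnc1tr/tr replicate 3 as the only mutant library the log2 fold change was 5.41. None of its 31-base words occurred in transcripts of other genes, so its reads were not shared with a near copy. The other listed members of the family stayed low: Sprr2d was above 0 in a single library, Bnc1tr/tr replicate 3, at 0.38 FPKM, and Sprr2a1 and Sprr2a2, which share nearly all of their sequence, reached 0.01. Lce1f and Lce1m, late cornified envelope proteins, reached 0.71 and 0.27 FPKM, also in Bnc1tr/tr replicate 3.

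Promoter sequences are shown for Sprr1a, for 3 keratins that rose (Krt71, Krt73, Krt25) and for Krt12, the most abundant member in WT, which did not pass the test. They are RefSeq sequences of GRCm38.p6 from 220 bases before to 30 bases after the annotated start, all on the minus strand and written 5′ to 3′, at chr3:92485852-92486101, chr15:101743068-101743317, chr15:101802331-101802580, chr11:99322922-99323171 and chr11:99422230-99422479. Capitals mark TATAAA (the TATA box), TGANTCA (the AP-1 element) and CACACCC (a Klf-type box), searched on both strands with no overlap among the marked sites.
Sprr1a: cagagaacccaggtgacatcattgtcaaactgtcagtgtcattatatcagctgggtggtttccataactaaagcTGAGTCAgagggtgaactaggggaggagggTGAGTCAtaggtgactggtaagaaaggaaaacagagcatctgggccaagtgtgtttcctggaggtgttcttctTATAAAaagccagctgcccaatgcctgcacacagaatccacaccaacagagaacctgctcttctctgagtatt
Krt71: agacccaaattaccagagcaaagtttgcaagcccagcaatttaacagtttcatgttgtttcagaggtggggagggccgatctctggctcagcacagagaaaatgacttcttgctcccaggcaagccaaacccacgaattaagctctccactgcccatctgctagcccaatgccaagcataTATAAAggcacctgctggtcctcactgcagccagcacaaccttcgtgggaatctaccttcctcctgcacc
Krt73: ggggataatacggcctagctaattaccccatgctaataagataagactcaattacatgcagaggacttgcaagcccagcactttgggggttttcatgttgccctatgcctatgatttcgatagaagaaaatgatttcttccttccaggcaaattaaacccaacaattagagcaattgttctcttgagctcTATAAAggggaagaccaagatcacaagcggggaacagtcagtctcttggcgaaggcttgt
Krt25: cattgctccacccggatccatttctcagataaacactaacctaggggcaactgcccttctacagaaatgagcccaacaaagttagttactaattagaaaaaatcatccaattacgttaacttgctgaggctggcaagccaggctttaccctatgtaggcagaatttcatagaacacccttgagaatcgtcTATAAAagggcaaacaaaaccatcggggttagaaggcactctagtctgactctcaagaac
Krt12: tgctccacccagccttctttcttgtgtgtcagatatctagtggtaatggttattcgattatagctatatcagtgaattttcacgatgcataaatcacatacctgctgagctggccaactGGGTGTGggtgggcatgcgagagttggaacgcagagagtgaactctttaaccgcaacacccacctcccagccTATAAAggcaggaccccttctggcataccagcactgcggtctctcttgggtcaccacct

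In the Sprr1a promoter TGANTCA began 146 and 116 bases before the start and TATAAA 43 bases before it. The keratin promoters shown held no TGANTCA, and each had TATAAA, 40 bases before the start in Krt71, 30 in Krt73 and Krt25 and 29 in Krt12. Promoters were found for 44 of the 61 members, 46 promoters in all, and were searched over 300 bases. TATAAA occurred in 56.5% of them and in 13.6% of 32851 mouse promoters, TGANTCA in 8.7% and 7.81%, CACACCC in 8.7% and 7.95%, and GGGCGG, the GC box, in 10.9% and 35.7%. Among members that rose, TATAAA was not found in the promoters of Krt79, Krt36, Krt18 and Tgm1, which are not shown, and it was found in that of Krt12, which did not pass. These matches describe letters only.

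Among the 21 type I keratins, 7 were tested and 4 rose, and 2 of the 7 had a WT mean under 1 FPKM. With no filter 4 of the 21 (19%) were called higher, near the 15.5% of all genes. Krt35, a keratin of the hair shaft, stood at 15.53, 16.09 and 7.24 FPKM in Bnc1tr/tr and at 0.13, 0.08 and 0 in WT. It was at or near the floor in every WT library, and its log2 fold change was 3.63 ± 0.28 (limma adjusted p = 2.6e-05). Krt36, which is also of the hair keratin group, was at 5.88, 5.70 and 3.40 FPKM against 0.74, 1.34 and 0.99, higher in every mutant library by 1.55 ± 0.22 on the log2 scale (limma adjusted p = 0.00086). Krt25, of the inner root sheath, was at 15.74, 14.94 and 20.45 FPKM against 2.71, 10.12 and 9.22. The groups did not overlap and the log2 fold change was 1.25 ± 0.38, but this was the weakest call among the members (limma adjusted p = 0.034). It was lost under 10 of 17 alternatives, with all 3 scalings and without each mutant library in turn among them, and transcripts of other genes, Krt27 and Krt28 among them, hold 15.7% of its 31-base words. Krt27, its neighbour in the inner root sheath set, was at 1.34, 5.82 and 4.05 FPKM against 0.55, 1.75 and 1.75, with overlapping groups (log2 fold change 0.93 ± 0.39, limma adjusted p = 0.10). Without Bnc1tr/tr replicate 1, its lowest mutant library, Krt27 passed (limma adjusted p = 0.014).

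The 2 most abundant keratins of WT oocytes did not pass. Krt12, known as the type I keratin of the corneal epithelium, stood at 50.25, 62.51 and 50.94 FPKM in Bnc1tr/tr and at 59.40, 64.36 and 93.31 in WT, with overlap and a log2 fold change of -0.38 ± 0.21 (limma adjusted p = 0.20). An annotated antisense gene, A830036E02Rik, covers 54.4% of the Krt12 exon bases, and without a stated strand the reads of the pair cannot be told apart. Krt10, the type I keratin of upper epidermis, was at 12.79, 16.53 and 17.72 FPKM against 11.02, 11.07 and 16.52, a log2 fold change of 0.28 ± 0.21 (limma adjusted p = 0.35). Its type II partner Krt1 was above 0 in a single library, at 0.03 FPKM. A further 3 type I keratins reached 1 FPKM in a mutant library with a mean too low to be tested. Krt24 was at 0.72, 1.45 and 0.67 FPKM against 0, 0 and 0.09, without overlap, and was called in the fit with no filter (limma adjusted p = 0.016). Krt13, of stratified mucosal epithelia, was at 0.31, 1.22 and 1.25 FPKM against 0, 0.25 and 0.61, and Krt32, of hair, at 1.09, 1.14 and 0 against 0.05, 0.08 and 0.38, both with overlap.

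Among the 20 type II keratins, 9 were tested and 5 rose, and 3 of the 9 had a WT mean under 1 FPKM. With no filter 6 of the 20 (30%) were called higher, beside 15.5% of all genes. The inner root sheath keratins Krt73 and Krt71 were the most abundant of those that rose. Krt73 stood at 40.04, 39.32 and 21.16 FPKM in Bnc1tr/tr and at 5.01, 3.26 and 2.29 in WT, so the means differed 9.52-fold (log2 fold change 2.92 ± 0.30, limma adjusted p = 0.00013). Krt71 was at 17.35, 13.48 and 13.25 FPKM against 1.54, 2.95 and 0.45, an 8.92-fold difference of the means (2.67 ± 0.33, limma adjusted p = 0.00036). Every mutant library was well above every WT library for both. Krt72, which lies between them on the chromosome, was at 2.24, 3.53 and 3.54 FPKM against 1.69, 2.25 and 1.85 and did not pass (0.47 ± 0.19, limma adjusted p = 0.091). Without Bnc1tr/tr replicate 1, which overlapped with WT, it did (limma adjusted p = 0.042). Of all 7 listed keratins of the inner root sheath set (Krt25 to Krt28 and Krt71 to Krt73), 3 were called higher. With no filter 2 of the 7 (28.6%) were called higher, without Krt25, beside 15.5% of all genes.

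Krt79, known from the hair canal, stood at 5.34, 5.58 and 8.25 FPKM in Bnc1tr/tr and at 0.21, 0 and 0 in WT. Every mutant library was above every WT library (log2 fold change 2.77 ± 0.20, limma adjusted p = 1.9e-05). Krt87, of the hair keratin group, was at 6.46, 4.72 and 3.85 FPKM in Bnc1tr/tr and listed at 0 in every WT library, so no fold is given (limma adjusted p = 2.4e-05). Other transcripts, those of Krt83 and Krt81 among them, hold 52.4% of its 31-base words, so which of these hair keratins the reads came from is uncertain. Krt80 was below the filter at 1.55, 1.27 and 0.47 FPKM against 0.09, 0.19 and 0.14, and passed in the fit with no filter (limma adjusted p = 0.042).

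Krt76, Krt84 and Krt88, which WT oocytes already held, did not pass. Krt76, known from the palate, was at 9.29, 9.95 and 6.35 FPKM against 6.64, 5.60 and 3.79 (0.59 ± 0.23, limma adjusted p = 0.083). Krt84, of the hair keratin group, was at 7.41, 3.97 and 3.68 FPKM against 6.71, 5.69 and 2.24, and its sign turned under all 3 scalings (0.08 ± 0.35, limma adjusted p = 0.89). Krt88 stood at 5.47, 9.82 and 7.68 FPKM in Bnc1tr/tr and at 11.21, 13.45 and 10.78 in WT. It was the only tested member with every mutant library below every WT library, and it missed the threshold in the values as deposited (-0.59 ± 0.22, limma adjusted p = 0.066) but passed after upper-quartile, median-ratio and quantile scaling (limma adjusted p = 0.018, 0.024 and 0.019). Among the 12 listed keratins with numbers from 31 to 40 and from 81 to 88, the range of the hair keratins, Krt35, Krt36 and Krt87 rose. Krt84 and Krt88 did not pass. With no filter 3 of the 12 (25%) were called higher and 0 lower, beside 15.5% and 3.82% of all genes.

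**Figure D2:**
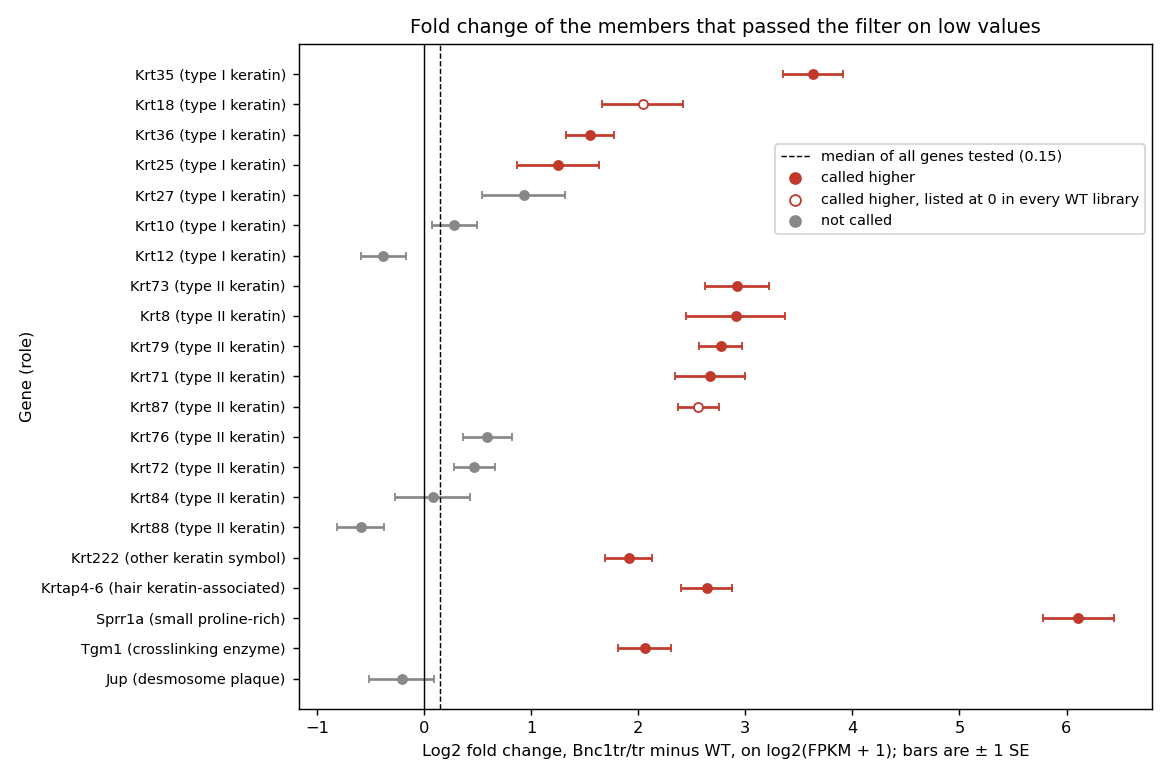
Log2 fold change, Bnc1tr/tr minus WT, of the 21 members that passed the filter, with bars of ± 1 SE, grouped by role, and a dashed line at the median of all genes tested (0.15). Red marks were called higher, open red marks are the members listed at 0 in every WT library (Krt18 and Krt87), and grey marks were not called; Sprr1a at 6.11 lies apart from the others, which end at 3.63.

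The simple epithelial pair rose together, and Krt8 had the largest SE of the tested members. Krt8, the type II chain, stood at 22.79, 6.05 and 6.17 FPKM in Bnc1tr/tr and at 1.05, 0.27 and 0.09 in WT, with replicate 1 far above the others (log2 fold change 2.91 ± 0.46, limma adjusted p = 0.0015). Krt18, its type I partner, was at 6.11, 3.72 and 1.08 FPKM in Bnc1tr/tr and listed at 0 in every WT library (limma adjusted p = 0.0036). Without Bnc1tr/tr replicates 1 and 2, which leaves a single mutant library, the log2 fold changes of Krt8 and Krt18 were 2.34 and 1.06. Transcripts of other genes, a Krt8 pseudogene among them, hold 32.3% of the 31-base words of Krt8 and 11.4% of those of Krt18, so which copy part of the reads came from is uncertain. Krt7, a further simple keratin, was at 0.61, 0.30 and 0.76 FPKM against 0, 0.22 and 0.20, and Krt20 stayed at 0.23 or less. The pair also marks the ovarian surface epithelium, whose 10 listed markers, Krt8 and Krt18 among them, summed to 38.8 to 64 FPKM in Bnc1tr/tr and 12.9 to 14.6 in WT. Of these markers 4 were called higher: the pair itself, Upk3b and Cdh1. All 4 were also called higher with no filter, beside 15.5% of all genes. Krt8, Krt18 and Upk3b had a WT mean under 1 FPKM and passed the filter through the mutant group. Epcam was tested at 1.43, 0.84 and 1.63 FPKM against 1.49, 0.76 and 0.23 and was not called. Upk3b was at 3.36, 2.02 and 1.40 FPKM against 0.66, 0.37 and 0.63, and Cdh1 at 29.71, 27.70 and 27.68 against 11.36, 12.06 and 11.78. Wt1, Lhx9 and Upk1b were at 0.08 FPKM or less in all 6 libraries. The 8 listed keratinocyte markers summed to 24.7 to 30.9 FPKM in Bnc1tr/tr and 19.6 to 22.6 in WT, mostly Krt10 and Trp63. Among them Krt1, Krt15, Dsg3, Dsc3 and Col17a1 stayed at 0.32 FPKM or less, and Lgals7 was at 2.15, 1.75 and 0.31 FPKM and listed at 0 in WT.

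The remaining tested members were 1 gene per class. Krt222, a keratin-family gene beside the type I cluster, stood at 5.01, 6.23 and 4.55 FPKM against 0.48, 0.39 and 1.19, without overlap (log2 fold change 1.91 ± 0.22, limma adjusted p = 0.00023). Krtap4-6, a protein of the matrix between hair keratin filaments, was at 9.95, 6.92 and 5.92 FPKM against 0.10, 0.26 and 0.79 (2.64 ± 0.24, limma adjusted p = 6.9e-05), and shares 30.1% of its 31-base words with other transcripts, Krtap4-8 and Krtap4-9 among them. Of the 7 listed Krtap genes it was the only one to reach 1 FPKM. Krtap14 went the other way, listed at 0 in every mutant library and at 0.42, 0.94 and 0.22 FPKM in WT.

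Tgm1, the membrane-bound transglutaminase that crosslinks the envelope, stood at 7.06, 4.59 and 3.62 FPKM in Bnc1tr/tr and at 0.27, 0.82 and 0.24 in WT. All mutant libraries were above all WT ones (log2 fold change 2.06 ± 0.25, limma adjusted p = 0.00033). Tgm3, the soluble enzyme of hair follicle and upper epidermis, stayed at 0.27 FPKM or less. Jup, or plakoglobin, which links desmosomal cadherins to the plaque, was at 3.65, 1.30 and 2.12 FPKM against 3.82, 2.99 and 1.69 with overlap (-0.21 ± 0.30, limma adjusted p = 0.63), and its sign turned without Bnc1tr/tr replicate 2. Dsp, which ties keratin filaments to the plaque, reached 0.66 FPKM, Pkp1 0.04, and the envelope scaffold protein Ppl 0.26. The enzyme and a substrate of the envelope thus rose while the desmosome plaque members did not pass or were too low to be tested.

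In all, 36 members stayed under 1 FPKM in every library, and the highest value among them was 0.98 FPKM, for Krt17 in Bnc1tr/tr replicate 2. Of these, Ppl, Krtap10-10, Lce1m, Krt20, Krt28, Krt6a, Krt7 and Krt75 were higher in all mutant libraries, 8 of the 36 beside 28.2% of all genes, and Krtap14 was lower. Over the whole list 15 members were listed at 0 in every WT library and 5 in every mutant library. No share over all genes was counted for these. Genes of any kind above 0 were more in mutant libraries too, 15258 to 15736 against 13896 to 14576 in WT. Members at 1 FPKM or more numbered 23, 25 and 22 in Bnc1tr/tr libraries and 11, 12 and 11 in WT libraries. The mutant libraries also had more genes of any kind at that level, 10682 to 11035 against 9518 to 9748.

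The summed level of the members was 366, 373 and 257 FPKM in Bnc1tr/tr and 116, 131 and 151 in WT. Without Sprr1a the sums were 258, 250 and 203 FPKM against 116, 130 and 150, so the groups remained apart. Type II keratins summed to 120, 98.8 and 76.2 FPKM against 34.6, 34.1 and 22. Type I keratins overlapped at 112, 131 and 108 FPKM against 75.1, 89.8 and 124, with Krt10 and Krt12 making up 70.4 to 110 FPKM of the WT sums. Without this pair the type I sums were 48.5, 52.4 and 39 FPKM against 4.69, 14.4 and 13.8. Of the summed increases of mean FPKM over the members, Sprr1a held 42.4%, Krt73 13.4%, Krt71 5.85%, Krt35 5.77% and Krt8 5.02%, which is 72.5% for these 5 genes. The 13 called members together held 92.7%, a share that is high in part by construction, since the same difference selected them. In order of level, Krt12 and Krt10 were the first and the second member in WT oocytes, while Sprr1a, Krt12 and Krt73 led in mutant oocytes.

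**Figure D3:**
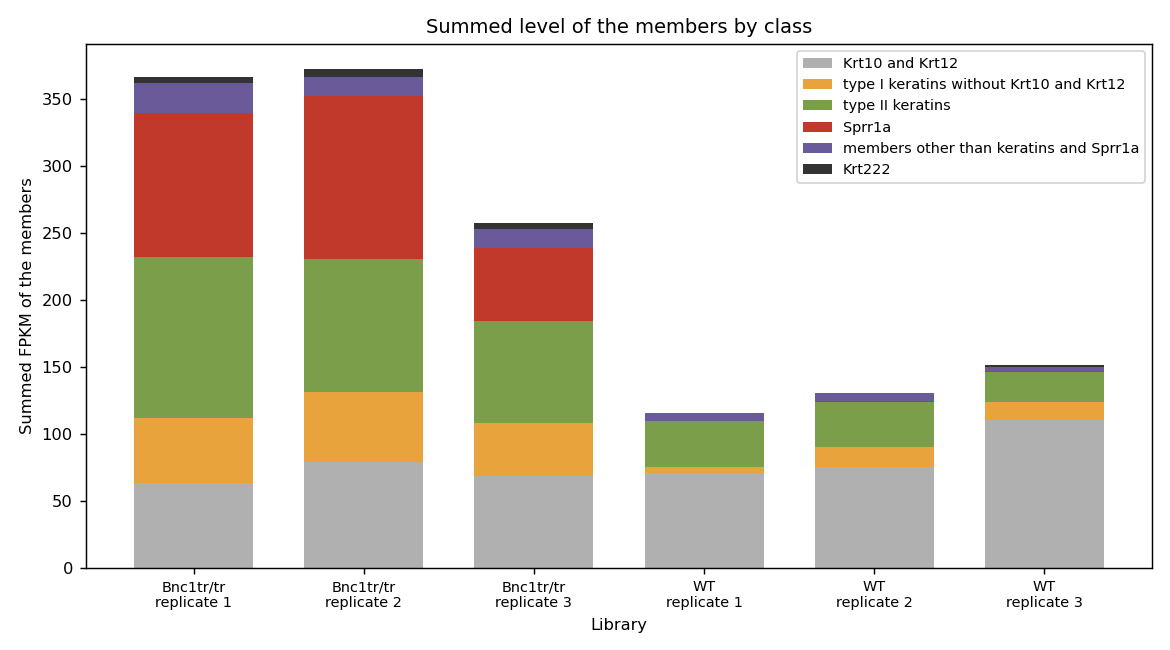
Summed FPKM of the 61 members in each library, stacked by class from an axis that starts at 0. The mutant libraries reach 257 to 373 FPKM and the WT libraries 116 to 151, with Sprr1a (red) nearly absent from the WT bars and Krt10 with Krt12 (grey) at 63 to 79 FPKM in mutant and 70.4 to 110 in WT libraries.

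Most members lie in a pair of keratin clusters, and members that rose were found in both. Of all genes tested 24.1% were called higher, and the counts below cannot be set against that share directly. Krt222, Krtap4-6, Krt35, Krt87, Krt79, Krt8, Krt18, Sprr1a and S100a10 had a WT mean under 1 FPKM and passed the filter through the mutant group. The counts over listed genes can be set beside 14.5%, the share of all 17577 listed genes, tested or not, that were called higher. The type I cluster at chr11:99232761-100269951 (GRCm38.p6) held 23 listed members, of which 8 were tested and 5 rose (Krt222, Krt25, Krtap4-6, Krt35 and Krt36). The type II cluster at chr15:101348315-102032026, whose last gene is the type I keratin Krt18, held 21, of which 10 were tested and 6 rose (Krt87, Krt71, Krt73, Krt79, Krt8 and Krt18). In both clusters genes that rose stood next to genes that did not, such as Krt87 beside Krt88 and Krt25 in the same run as Krt10 and Krt12. Sprr1a lies at chr3:92483954-92485881 in the epidermal differentiation complex, where it was the only one of 6 listed members to be tested. Of the 13 other listed genes from S100a14 to S100a10 in that region, 4 were tested and S100a10, S100a11 and S100a16 rose. The other 9 had group means of 0.837 FPKM or less.

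**Figure D4:**
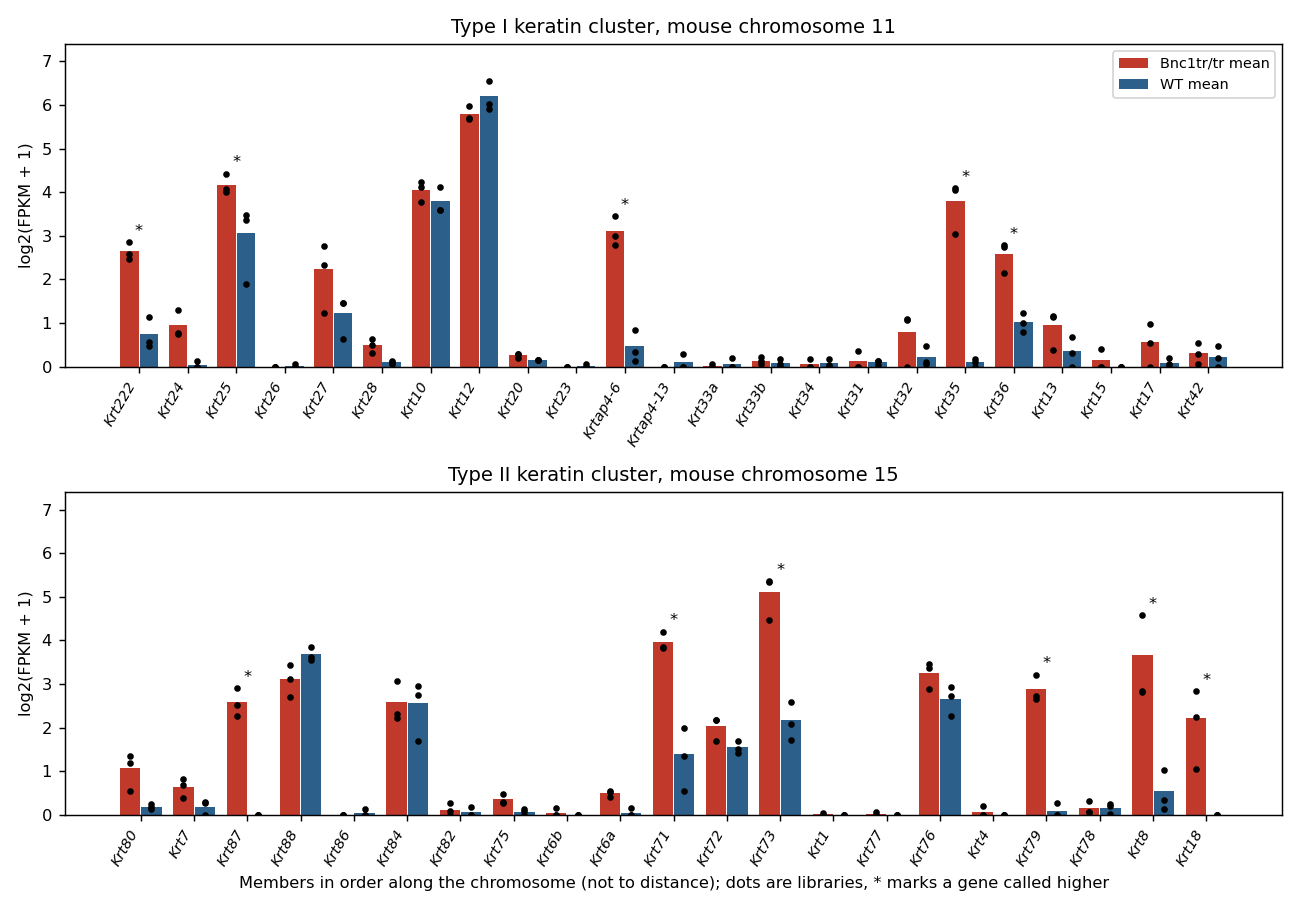
Level of the members of the type I cluster (upper panel) and the type II cluster (lower panel) in their order along the chromosome, not to distance, as log2(FPKM + 1) of the group mean with dots for the 3 libraries of each group and a star where a gene was called higher. Of the listed members 5 of 23 in the upper and 6 of 21 in the lower panel carry a star, beside 14.5% of all listed genes. Members that were not called stand between them.

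Other epidermal genes were counted over 79 listed genes in 4 classes, also chosen with earlier results known. Of the 34 tested, 21 rose and 1, Bnc1 itself, fell. The 34 cannot be set directly against the 24.1% and 7.68% of all genes tested, since 8 had a WT mean under 1 FPKM. With no filter 27 of the 79 (34.2%) were called higher and 1 (1.27%) lower, beside 15.5% and 3.82% of all genes. By class the share called higher was then 50% of the 12 desmosomal, 29.6% of the 27 envelope and 25% of the 12 barrier lipid genes. Without Bnc1tr/tr replicates 1 and 2, where a single mutant library is left, fewer of the 34, and also fewer of all genes, were called higher. Desmosomal genes rose in 4 of 5 tested: the cadherin Dsg1a, at 6.35, 6.17 and 6.58 FPKM against 0.95, 0.74 and 0.86 (log2 fold change 1.99), the tetraspan protein Perp (1.43), Dsc2 (0.67) and Pkp4 (0.57). Other envelope and differentiation genes rose in 6 of 8 tested, among them the annexin partner S100a10, at 18.44, 10.18 and 14.31 FPKM against 0.47, 0.41 and 0 (3.55), with S100a16 (2.71), Sfn (1.87), Anxa1 (1.44), Fabp5 (1.35) and S100a11 (1.04). Of the barrier lipid genes 3 of 5 tested rose: Elovl4 (1.85) and Elovl1 (1.35), which lengthen fatty acids, and Ugcg (1.02), which makes glucosylceramide.

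Of the epidermal regulators 16 were tested, 8 rose and Bnc1 fell, and 3 of the 16 had a WT mean under 1 FPKM. With no filter 10 of 28 (35.7%) were called higher and 1 (3.57%) lower, beside 15.5% and 3.82% of all genes. Hopx, a homeodomain protein of the differentiated layers, was at 15.61, 11.04 and 10.97 FPKM against 0, 0.20 and 0.16 (log2 fold change 3.58), and Klf4, a barrier factor, at 3.23, 3.50 and 4.44 against 0.78, 0.56 and 1.72 (1.26). Gata3 (2.24), Fos (1.71), Tfap2c (1.68), Prdm1 (1.23), Grhl2 (1.03) and Ovol1 (0.86) also rose. Trp63, the master regulator of stratified epithelia, which oocytes are known to express, stood at 9.31, 10.83 and 12.42 FPKM against 8.50, 8.44 and 6.12 and did not pass (0.45 ± 0.19, limma adjusted p = 0.10). Bnc2, the paralog of Bnc1, was at 7.16, 5.23 and 5.62 FPKM against 5.24, 5.05 and 4.67 (0.22 ± 0.17, limma adjusted p = 0.37).

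Intermediate filament genes outside the keratins and the plakin linkers were counted in the same way. Of 16 listed, 6 were tested, and by limma 0 rose (also 0 at an unadjusted p under 0.05), 1 fell and 5 did not pass. Lmna, a lamin of the nuclear envelope, was the one that fell, from 20.53, 17.06 and 15.69 FPKM in WT to 9.36, 8.42 and 8.39 in Bnc1tr/tr (log2 fold change -0.94 ± 0.17, limma adjusted p = 0.0029). With no filter 0 of the 16 were called higher, beside 15.5% of all genes, and no test compared these genes with the keratins.

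**Figure D5:**
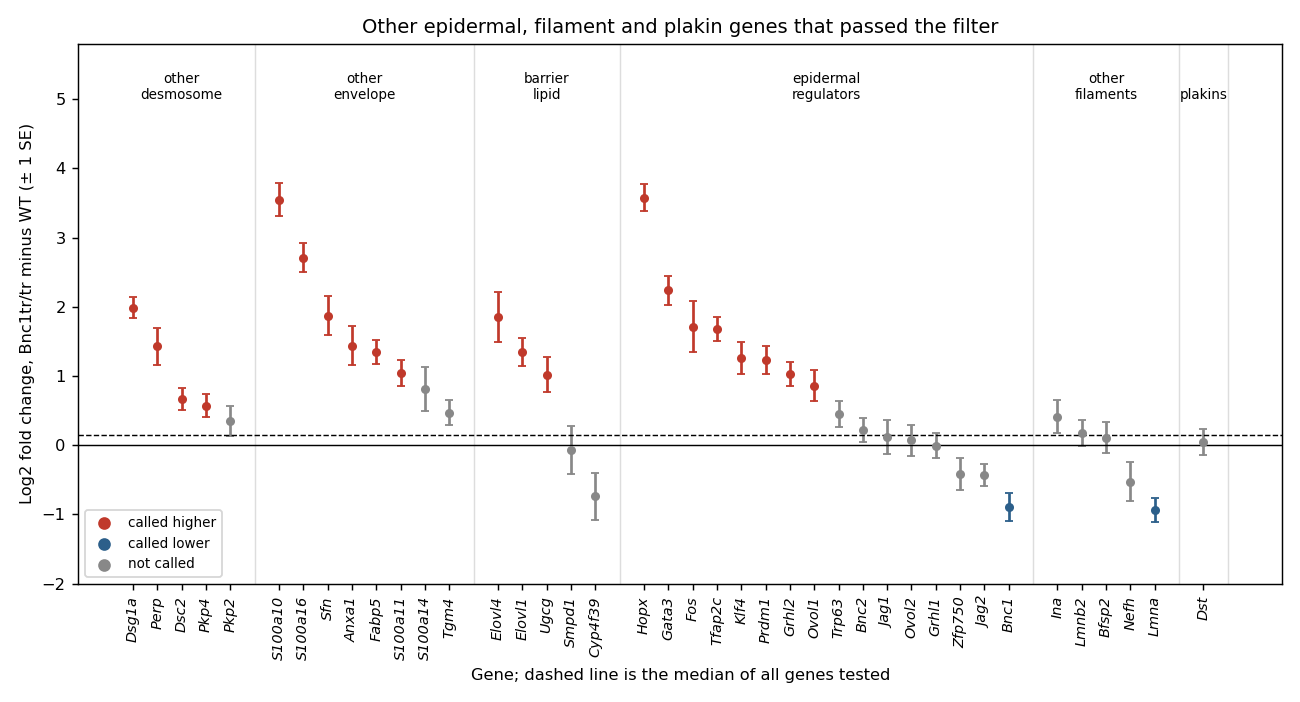
Log2 fold change (Bnc1tr/tr minus WT, ± 1 SE) of the tested genes of the other desmosome, envelope, barrier lipid, regulator, filament and plakin lists, with a dashed line at the median of all genes tested. Red marks rose, blue marks fell and grey marks were not called; in the first 4 lists 21 of 34 genes are red, and in the last 2 lists 0 of 6.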

How the data were processed

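Libraries of mouse GV oocytes, 3 Bnc1tr/tr and 3 WT by the genotype in the labels, were compared. The authors deposited a table of FPKM per library for the same 17577 genes, with 2 decimals, and the submitters' processing notes name HISAT2 2.0.4, Bowtie2 2.2.5, RSEM 1.2.12 and GRCm38.p6, with no strand setting. Each FPKM is a share of its library, so abundant transcripts move all others. The cDNA was amplified with no molecular identifiers, so estimates from fragments cover counting error alone. Dates in place of 25 symbols were restored by gene ID. Members and lists were chosen with earlier results of these data known. Genes whose mean reached 1 FPKM were fitted with limma 3.58.1 (R 4.3.3) on log2(FPKM + 1), with Benjamini-Hochberg adjustment over the 10560, so fold changes of low genes are understated. Members with at least 1 FPKM in a library are named with all values. Of other lists, called genes are named, with Bnc2 and Trp63. Shared 31-base words and exon overlap came from GENCODE M21, positions and promoters from RefSeq. Depth, used in no test, was taken from the periodicity of low values. In simulated data on 10560 genes for this comparison, 46 of 100 genes changed by 1 and 89 of 100 changed by 2 on the log2 scale were recovered, with 3 false calls. The simulation changed far fewer genes than the 3358 called in the data and drew independent normal noise, so its figures do not carry over directly. Alternatives covered the pseudocount, filter, scaling, variance model, fold threshold, replicate block and left-out libraries. Figures were drawn with matplotlib 3.10.9.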

Additional observations from a re-analysis of the deposited data

How the results depend on the processing

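With more than 1 library per group, the count of 13 members called higher stayed between 12 and 15 under every alternative but 1. That was the filter at a mean of at least 5 FPKM, which left 10 members in the test and 6 called. The fit without Bnc1tr/tr replicates 1 and 2 (chosen after seeing the data) leaves a single mutant library. The members that lost their call in it were Krt25, Krt36, Krt71 and Krt222. Bnc1 lost its call too, at a log2 fold change of -1.13. Members called lower numbered 1 in place of 0, Krt88 each time, under upper-quartile, median-ratio and quantile scaling and under the replicate block, and 0 to 1 when 1 replicate was left out. Other epidermal genes called higher numbered 12 with the filter at a mean of 5 FPKM. Fewer of them, and also fewer of all genes, were called without Bnc1tr/tr replicates 1 and 2, where a single mutant library is left. The cause was not tested. Filament and plakin genes called higher numbered 0 throughout.

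Over the 21 tested members, 317 of 346 alternative values kept direction and side of the threshold, 13 lost a call, 9 gained one and 7 changed sign. The sign changes belonged to Krt84, at -0.15, -0.10 and -0.30 under upper-quartile, median-ratio and quantile scaling, -0.24 without Bnc1tr/tr replicates 1 and 2 and -0.31 to 0.32 when 1 replicate was left out, and to Jup, at -0.48 to 0.032 when 1 replicate was left out. The correlation of deviations was 0.278, -0.0344 and 0.124 for the libraries numbered 1, 2 and 3, so the numbers were not taken to pair the libraries. The replicate block called 15 members higher (with Krt27 and Krt76) and gave Bnc1 a log2 fold change of -0.89 (limma adjusted p = 0.011). Over all genes, calls numbered 2547 higher and 811 lower in the values as deposited. They numbered 1851 and 1792 after upper-quartile, 1953 and 1535 after median-ratio and 1637 and 1877 after quantile scaling. At an absolute log2 fold change over 1 they numbered 1418 and 259. Depth limits the members near or under 0.141 to 0.228 FPKM, the level of 3 fragments per kilobase by library, and lower values rest on fewer.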
